A study of Mus musculus with 12 samples.

Results

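The genes described here are 10 enzymes that make phosphatidylcholine and its phospholipid precursors in the liver: Pemt, Chka, Chkb, Pcyt1a, Pcyt2, Etnk1, Cept1, Ptdss1, Ptdss2 and Pisd. They were chosen by symbol from the 23991 genes of the deposited expression table, using the transcript with the highest value for each gene. None of the 10 was chosen by its measured level, though the set was chosen with earlier results of these data known. All came from polyA RNA-seq of whole liver from male C57/Bl6J mice, which went onto their diets at 4 weeks of age and stayed on them for 16 weeks. One group ate chow. Another ate a high-fat diet that held 0.2% cholesterol w/w (HFD). The last ate the same diet with SC-435 at 0.006% (HFD+ASBTi), a compound that blocks ASBT, by which the ileum takes bile acids back up. There were 4 libraries in each group, numbered within it and read in that order below, except that the chow library in place of number 3 matched its group's labels alone and is called chow C7. No genetic change is given for any group.

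Liver makes most of its phosphatidylcholine by the CDP-choline route, in which a choline kinase phosphorylates choline, a cytidylyl transferase makes CDP-choline at the slow step, and a phosphotransferase joins it to diacylglycerol. A parallel route makes phosphatidylethanolamine from ethanolamine, and Pemt, which is characteristic of hepatocytes, methylates that lipid to phosphatidylcholine with methyl groups from S-adenosylmethionine. Phosphatidylserine synthases exchange the head groups of these lipids for serine, and a mitochondrial decarboxylase turns phosphatidylserine back into phosphatidylethanolamine. Liver uses phosphatidylcholine for membranes, for the coat of very low density lipoproteins and for bile, where it accompanies bile acids and cholesterol.

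Start-site windows of 3 members are shown because they hold the matches that the descriptions refer to. Each is the 250 bases before an annotated start, 5′ to 3′ on the gene's strand, from RefSeq on GRCm38.p6. Capitals mark matches on either strand to the motifs listed after the sequences. Pcyt1a is shown for a sterol regulatory element core, Cept1 as the member with the lowest adjusted p in any comparison, and Chka as the member that varied most between libraries. The windows are Pcyt1a at chr16:32430671-32430920 on the plus strand, Cept1 at chr3:106547803-106548052 on the minus strand and Chka at chr19:3851523-3851772 on the plus strand.
Pcyt1a: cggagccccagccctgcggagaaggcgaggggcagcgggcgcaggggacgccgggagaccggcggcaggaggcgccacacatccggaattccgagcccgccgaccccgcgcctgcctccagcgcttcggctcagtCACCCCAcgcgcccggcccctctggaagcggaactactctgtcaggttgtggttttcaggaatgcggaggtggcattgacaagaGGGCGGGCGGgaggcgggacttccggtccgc
Cept1: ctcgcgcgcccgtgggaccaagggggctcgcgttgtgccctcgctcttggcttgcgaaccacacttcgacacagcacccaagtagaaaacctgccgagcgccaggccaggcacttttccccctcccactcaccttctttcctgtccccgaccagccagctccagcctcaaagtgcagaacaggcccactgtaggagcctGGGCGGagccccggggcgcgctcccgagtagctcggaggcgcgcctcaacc
Chka: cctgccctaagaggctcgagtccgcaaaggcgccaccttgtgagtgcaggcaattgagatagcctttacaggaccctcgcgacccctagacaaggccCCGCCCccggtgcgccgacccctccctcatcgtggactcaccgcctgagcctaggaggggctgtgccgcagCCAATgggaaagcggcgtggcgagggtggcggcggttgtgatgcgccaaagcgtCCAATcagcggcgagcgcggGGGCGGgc

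The motifs searched on both strands were the E-box CACGTG bound by the clock and MYC families, the sterol regulatory element core CACCCCA, the CCAAT box CCAAT, the cyclic AMP response element core TGACGT, the GC box GGGCGG and the nuclear receptor site AGGTCA. The table holds 14 windows for 8 of the 10 members, and has no entry for Pcyt2 or Ptdss1. The sterol core was in 2 member windows, which are overlapping windows of Pcyt1a with the same match, and in 6.68% of 32851 windows of all genes. In the Pcyt1a window shown it starts 115 bases before the start site. GC boxes were in 7 member windows and in 32.7% of all windows, and CCAAT boxes in 4 member windows and in 33.8% of all. The 7 include overlapping windows of Cept1 and of Pcyt1a that share matches, so they are not separate. In the Chka window the CCAAT matches start 82 and 28 bases before the start site. The E-box, cyclic AMP core and nuclear receptor letters were in 0 member windows, against 6.02%, 6.47% and 14.02% of all windows. Each match describes letters and says nothing of whether a factor binds there.

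Values are RPKM as the authors deposited them, a read number divided by transcript length and by sequencing depth. The steps between low values fitted the genomic length of each transcript, introns included, better than its spliced length: the share of low values that came out as whole reads, within 0.05 of a read, was 77.8% to 80.4% per library with the first and 12.8% to 14.8% with the second. RPKM of different genes therefore cannot be set against each other, and levels between genes are given below as RPM (reads scaled to sequencing depth alone) per kilobase of spliced length. The steps gave an estimated 8960000 to 13230000 reads per library, and 52 to 4075 reads per member and library. All 8 hepatocyte markers passed the filter on low values, with summed levels of 3004 to 4917 RPKM. Red blood cell markers summed to 28.8 to 139 RPKM in chow, 168 to 301 in HFD and 147 to 287 in HFD+ASBTi. Of the 5 adipose tissue markers 1 passed the filter, and their sums were 0 to 0.876, 1.001 to 6.91 and 0.421 to 3.87 RPKM in the same order, with Lep and Retn at 0 in all chow and HFD+ASBTi libraries. Macrophage marker sums were 6.53 to 15.1, 9.39 to 11.9 and 10.1 to 16.9 RPKM. Pancreas and intestine markers, of which 1 of 5 passed the filter, summed to 3.29 to 4.79 RPKM in chow, 11.02 to 18.5 in HFD and 7.63 to 10.3 in HFD+ASBTi, with no overlap between groups and with Cpa1 and Prss1 at 0 in all libraries. The part of these cells in the results was not tested, and in whole liver fewer cells of a type and less RNA per cell cannot be told apart.

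Per spliced length, Pcyt2 and Pemt were the most abundant members in all 3 groups. In chow livers Pcyt2, the cytidylyl transferase of the ethanolamine branch, stood at 135 ± 5.96 RPM per kb (SD, n = 4) and Pemt at 89.6 ± 10.02. Pcyt1a, the cytidylyl transferase of the choline branch, followed at 26.6 ± 1.37 RPM per kb. The library ranges of these 3 genes did not overlap with each other in any group. Cept1 at 12.7 ± 1.15, Pisd at 11.2 ± 0.976 and Chkb at 10.3 ± 1.30 RPM per kb came next in chow. Cept1 lay apart from Pcyt1a, Pisd overlapped with Cept1, and Chkb overlapped with Pisd. Chka, Ptdss1 and Etnk1 lay between 6.83 and 7.57 RPM per kb on average and overlapped as well. Ptdss2 was the lowest in each group, at 1.57 ± 0.172 RPM per kb in chow, and its range lay apart from the member above it. The order of the lowest 7 genes differed between groups only among genes whose ranges overlapped in at least 1 group. If intron reads were counted, these levels overstate genes with long introns, such as Pemt.

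**Figure D1:**
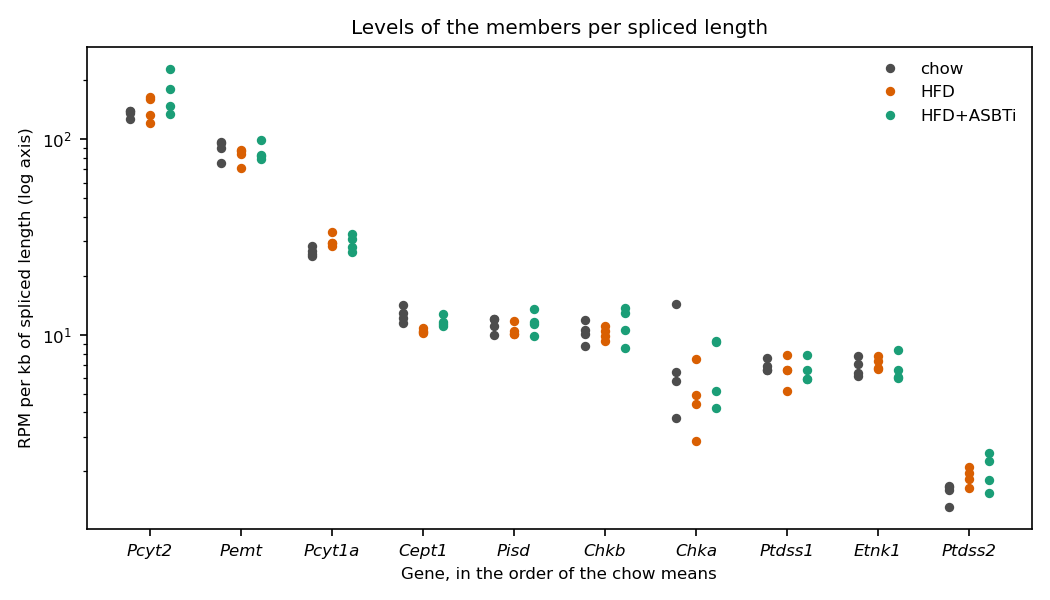
Level of each member in each library, in RPM per kb of spliced length on a log axis, with genes in the order of their chow means and colour for the group. Pcyt2, Pemt and Pcyt1a lie apart from each other at the top, Ptdss2 lies lowest, and the 6 genes between overlap with a neighbour.

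None of the 7 members that passed the filter was called in any of the 3 comparisons by limma, at a Benjamini-Hochberg adjusted p under 0.05 over 6325 genes. The share of all tested genes called was 12.1% for HFD against chow, 0.0949% for HFD+ASBTi against HFD and 7.05% for HFD+ASBTi against chow. At an unadjusted p under 0.05 limma passed 1, 0 and 0 of the 7 members, against 28.7%, 9.26% and 23.3% of all tested genes. Chka, Ptdss1 and Ptdss2 missed the filter of 0.5 RPKM in 4 libraries. On the RPM scale, where all 10 members entered the test, limma again called 0 of 10 in each comparison, against 9.81%, 0.0452% and 5.48% of 13286 genes. There, 1, 0 and 1 members had an unadjusted p under 0.05, against 24.9%, 7.59% and 20.1% of genes. The median log2 difference of the 7 tested members was -0.01, 0.06 and 0.02 in the 3 comparisons, and that of all tested genes 0.02, 0.01 and 0.03. Regardless of sign, the median size was 0.0865, 0.0611 and 0.0749 for the members and 0.147, 0.0913 and 0.128 for all tested genes. This log2(RPKM + 0.5) scale shrinks the differences of low genes, and genes were not matched by level. The members are therefore not shown to have moved less than other genes. The labels do not state that libraries are separate animals, so the p-values speak of differences among libraries, part of which may be technical.

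A p above the threshold does not show that the groups had the same level, so each difference is given with its 95% interval from the RPM-scale model. Of the 30 intervals, 25 lay within 1.5-fold in either direction. The 5 that reached beyond were the 3 of Chka, and those of Pcyt2 and Ptdss2 in HFD+ASBTi against chow.

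**Figure D2:**
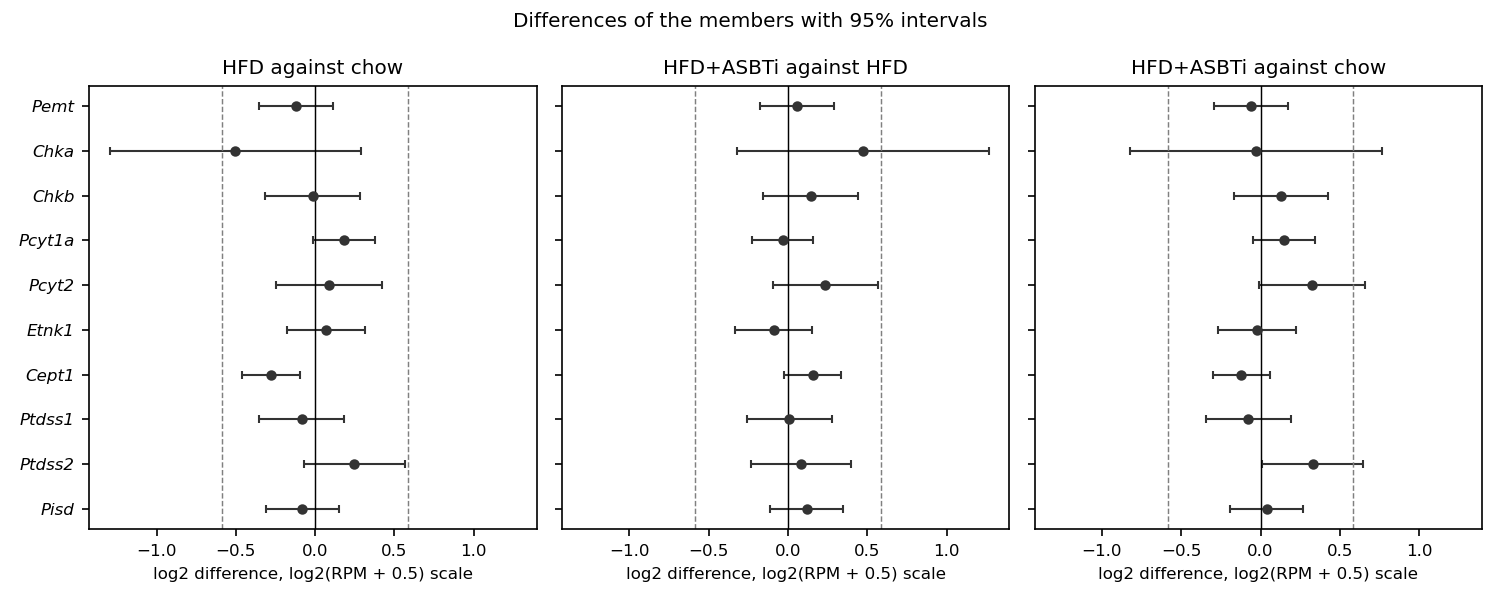
Log2 difference of each member on the log2(RPM + 0.5) scale with its 95% limma interval, for the 3 comparisons; dashed lines mark 1.5-fold. Chka has the widest intervals, and Cept1 in HFD against chow lies below 0.

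Chka and Chkb encode the choline kinases, which take the first step of the CDP-choline route. Chkb was read at 5.12, 4.22, 5.73 and 4.88 RPKM in chow, 4.50, 5.36, 5.05 and 4.75 in HFD and 6.62, 6.23, 5.11 and 4.13 in HFD+ASBTi. HFD+ASBTi libraries 1 and 2 were the highest of all and library 4 the lowest, so the groups overlapped. Chkb was 0.986-fold in HFD against chow, with an interval of 0.804 to 1.22 (adjusted p = 0.959, limma), and 1.12-fold in HFD+ASBTi against HFD (0.898 to 1.36; adjusted p = 0.783). Its neighbour Cpt1b, with which Chkb is known to form read-through transcripts, was at 0.410 to 0.438 RPKM in group means.

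Chka was the most variable member, with a coefficient of variation of 49.2% over the 12 libraries, where the median of all members was 11.5% and that of all tested genes 16.0%. Its RPKM values were 0.205, 0.317, 0.784 and 0.354 in chow, 0.156, 0.271, 0.243 and 0.411 in HFD, and 0.508, 0.504, 0.230 and 0.283 in HFD+ASBTi. Chow C7 was highest, HFD+ASBTi 1 and 2 came next, and the 3 groups overlapped. Chka was 0.652-fold in HFD against chow (interval 0.407 to 1.22) and 1.41-fold in HFD+ASBTi against HFD (0.802 to 2.41). In HFD+ASBTi against chow it was 0.920-fold (0.566 to 1.70). The limma adjusted p on the RPM scale were 0.430, 0.804 and 0.978 in the same order. Without chow C7, the log2 difference of HFD against chow moved from -0.22 to -0.04 on the log2(RPKM + 0.5) scale, and that of HFD+ASBTi against chow from -0.03 to 0.14.

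The 3 libraries highest in Chka were also the 3 highest in Arntl, a core activator of the circadian clock. Arntl was at 1.75, 1.31 and 2.03 RPM in chow 1, 2 and 4 and at 6.25 RPM in chow C7, estimated as 14 to 22 and 71 reads. It was at 3.08 and 3.82 RPM in HFD+ASBTi 1 and 2, and at 0.669 and 0.543 in HFD+ASBTi 3 and 4. HFD libraries had 0.381, 1.07, 0.663 and 0.377 RPM. Chka in RPM was 33.1 in chow C7, 21.5 and 21.3 in HFD+ASBTi 1 and 2, and 17.4 in HFD 4, where Arntl was among its lowest, close to HFD 1. Arntl belongs to none of the gene lists used here, and rested on an estimated 4 to 11 reads in the HFD libraries. How many other genes had the same 3 highest libraries was not counted. The part of the clock or of the hour of harvest in the Chka values was not tested.

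**Figure D3:**
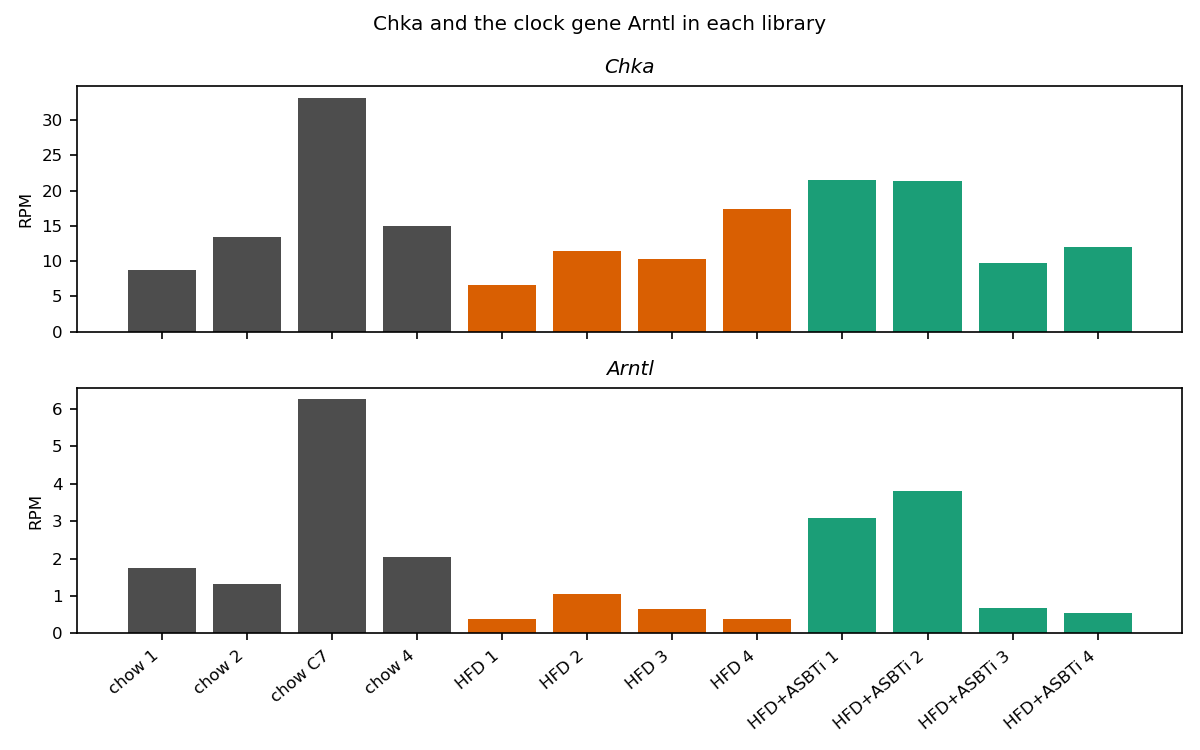
RPM of Chka (upper) and Arntl (lower) in each of the 12 libraries, both axes from 0, coloured by group. Chow C7 and HFD+ASBTi 1 and 2 are the 3 highest libraries in both, while HFD 4 comes next in Chka and is among the lowest in Arntl.

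Pcyt1a makes CDP-choline at the slow step of the route. Its RPKM was 1.15, 1.17, 1.21 and 1.29 in chow, 1.33, 1.34, 1.53 and 1.29 in HFD and 1.20, 1.28, 1.496 and 1.40 in HFD+ASBTi. HFD 4 lay just under chow 4, and the other HFD libraries were above all chow libraries. Pcyt1a was 1.14-fold in HFD against chow (interval 0.991 to 1.30; adjusted p = 0.195, limma) and 1.11-fold in HFD+ASBTi against chow (0.968 to 1.27; adjusted p = 0.344). Between HFD+ASBTi and HFD it was 0.978-fold, with an interval of 0.854 to 1.12. Slc51a, which overlaps it on the genome and was added after that overlap was seen, had group means of 0.00190 RPKM at most. Pcyt1b, the other form of the enzyme, missed the filter.

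Cept1 encodes a phosphotransferase of the last step, which can use CDP-choline or CDP-ethanolamine. It was the member nearest to a call. Its RPKM was 0.713, 0.755, 0.880 and 0.796 in chow, 0.640, 0.645, 0.629 and 0.665 in HFD and 0.715, 0.784, 0.686 and 0.697 in HFD+ASBTi. Every HFD library was below every chow library and below every HFD+ASBTi library, while chow and HFD+ASBTi overlapped. Group means were 0.786 ± 0.0711, 0.645 ± 0.0152 and 0.720 ± 0.0440 RPKM (SD, n = 4 each). All HFD libraries were below all chow libraries for 8.89% of tested genes, and all HFD+ASBTi libraries above all HFD libraries for 2.32%. Cept1 was 0.820-fold in HFD against chow, with an interval of 0.728 to 0.935 (log2 difference -0.17, SE 0.0518, adjusted p = 0.0578, limma). Set against HFD, HFD+ASBTi was 1.12-fold, with an interval of 0.983 to 1.26 and an adjusted p of 0.621.

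The Cept1 call depended on the scaling between libraries. With TMM factors, which scale each library by a trimmed mean of log ratios, its log2 difference in HFD against chow was -0.21 (adjusted p = 0.0226, limma, with 12.2% of genes called), and with quantile normalization -0.19 (adjusted p = 0.0321, with 12.8% called). Among called genes, 63.2% were higher in HFD with RPKM as deposited, 44.1% with TMM factors and 52.6% with quantile normalization. Dram2 and Dennd2d overlap Cept1 on the opposite strand, and counting by strand is not stated, so reads of the 3 genes cannot be told apart where they overlap. Dram2 was at 0.791 RPKM in chow and 0.770 in HFD on average. Dennd2d, added after the overlap was seen, was at 0.350 and 0.506 RPKM (adjusted p = 0.0195, limma without the filter), the opposite direction to Cept1. Chpt1, which is specific for choline at the same step, was 2.95 ± 0.242 RPKM in chow and 3.24 ± 0.696 in HFD (adjusted p = 0.649, limma).

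Etnk1 and Pcyt2 act in the ethanolamine branch, as the kinase and the cytidylyl transferase. Pcyt2 was at 32.6, 33.3, 30.2 and 33.2 RPKM in chow, 31.9, 28.9, 38.4 and 39.2 in HFD and 32.1, 35.5, 54.8 and 43.0 in HFD+ASBTi. The chow values lay close together, with a coefficient of variation of 4.41%, against 14.5% in HFD and 24.3% in HFD+ASBTi. HFD+ASBTi 3 and 4 were the highest of all libraries, and HFD+ASBTi 1 lay inside the chow range. Pcyt2 was 1.28-fold in HFD+ASBTi against chow (interval 0.995 to 1.58; adjusted p = 0.251, limma), 1.07-fold in HFD against chow (0.844 to 1.34) and 1.19-fold in HFD+ASBTi against HFD (0.936 to 1.48).

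Etnk1 was read at 0.957, 0.996, 1.20 and 1.10 RPKM in chow, 1.06, 1.14, 1.22 and 1.04 in HFD and 0.944, 1.03, 0.937 and 1.30 in HFD+ASBTi. All 3 groups overlapped, and HFD+ASBTi 4 was the highest library. Its fold was 1.05 in HFD against chow (0.885 to 1.24; adjusted p = 0.749, limma) and 0.946 in HFD+ASBTi against HFD (0.793 to 1.11). Etnk2, the other ethanolamine kinase, was 18.2, 15.2, 12.2 and 14.9 RPKM in chow and 11.2, 8.77, 12.1 and 10.8 in HFD. Every HFD library was below every chow library, as for 8.89% of tested genes, and the limma adjusted p was 0.0954. Ept1, the phosphotransferase specific for ethanolamine, was 0.748 ± 0.0543 RPKM in chow and 0.660 ± 0.149 in HFD (adjusted p = 0.427).

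Pemt, which methylates phosphatidylethanolamine to phosphatidylcholine, was at 1.36, 1.47, 1.14 and 1.45 RPKM in chow, 1.27, 1.07, 1.31 and 1.33 in HFD and 1.19, 1.24, 1.49 and 1.26 in HFD+ASBTi. HFD 2 was the lowest library and HFD+ASBTi 3 the highest, and chow C7 was below the other chow libraries, so all groups overlapped. Pemt was 0.919-fold in HFD against chow, with an interval of 0.783 to 1.08 (adjusted p = 0.502, limma). It was 1.04-fold in HFD+ASBTi against HFD (0.885 to 1.22; adjusted p = 0.912) and 0.957-fold in HFD+ASBTi against chow (0.815 to 1.13; adjusted p = 0.780). By Pearson's r of log2 values over the 12 libraries, the genes most like Pemt were Ebna1bp2 at 0.84, Mepce at 0.83 and Uqcr11 at 0.83. Those most like Cept1 were D7Ertd143e at 0.91, Ppp2r4 at 0.90 and Wrnip1 at 0.89. These are the highest of 6324 genes each, the points share library and depth, and no test was made.

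Ptdss1 makes phosphatidylserine from phosphatidylcholine, and Ptdss2 makes it from phosphatidylethanolamine. Ptdss1 was at 0.345, 0.363, 0.343 and 0.395 RPKM in chow, 0.411, 0.346, 0.345 and 0.271 in HFD and 0.310, 0.310, 0.412 and 0.345 in HFD+ASBTi, and the groups overlapped. Its intervals were 0.782 to 1.14 for HFD against chow and 0.835 to 1.21 for HFD+ASBTi against HFD. The antisense gene 4933433G19Rik overlaps it, at 0.504 to 0.523 RPKM in group means of its own length, so the Ptdss1 values are uncertain. Ptdss2 was at 0.229, 0.222, 0.181 and 0.230 RPKM in chow, 0.226, 0.269, 0.250 and 0.291 in HFD and 0.341, 0.250, 0.309 and 0.214 in HFD+ASBTi. It was the highest in HFD+ASBTi 1, and both diet groups overlapped with chow. Ptdss2 was 1.20-fold in HFD against chow (0.951 to 1.48; adjusted p = 0.330, limma, RPM scale) and 1.29-fold in HFD+ASBTi against chow (1.01 to 1.57; adjusted p = 0.231).

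Pisd, the decarboxylase of mitochondria, was at 0.530, 0.489, 0.439 and 0.531 RPKM in chow, 0.460, 0.448, 0.448 and 0.522 in HFD and 0.513, 0.601, 0.502 and 0.434 in HFD+ASBTi. The groups overlapped, with HFD+ASBTi 2 highest. The fold was 0.944 in HFD against chow (0.807 to 1.11; adjusted p = 0.705, limma) and 1.09 in HFD+ASBTi against HFD (0.926 to 1.27; adjusted p = 0.792). The small log2 difference of 0.02 in HFD+ASBTi against chow had the other sign with TMM factors and with quantile normalization. Pisd has near-identical copies, and how reads were shared among them is not stated, so its values are uncertain. Pisd-ps1 and Pisd-ps3 had group means of 6.09 to 8.002 RPKM. Both were 0.773-fold in HFD against chow (limma adjusted p = 0.110 and 0.109). In HFD+ASBTi against HFD both were 1.31-fold (limma adjusted p = 0.434 each). Pisd-ps2 was 0.794-fold and 1.41-fold in the same order (limma adjusted p = 0.322 and 0.508). The part of these copies in the Pisd values was not tested.

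**Figure D4:**
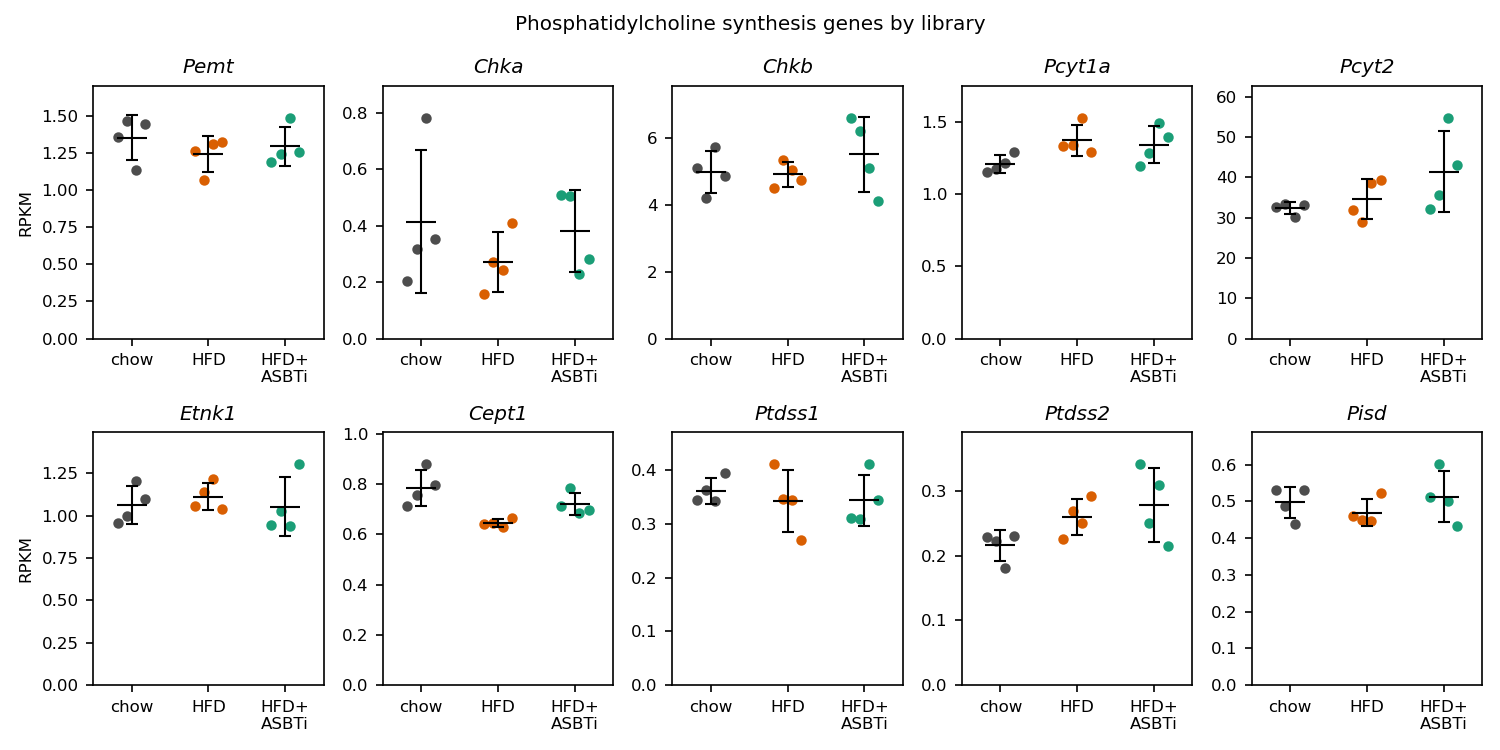
RPKM of the 10 members in each library by group, from 0, with the group mean and SD as black bars (n = 4 each). Cept1 in HFD lies below the other groups, Chka has 1 high chow library, and the groups of the other members overlap.

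Pairs of members were compared within libraries by the log2 ratio of their RPKM, with a two-sided exact permutation test of 4 against 4, whose smallest p is 0.0286. None of the 12 tests over 4 pairs and 3 comparisons passed the threshold. The design largely fixed that outcome, since a single pair at the smallest p would reach only 0.343 after adjustment over the 12. Pemt relative to Pcyt1a, the methylation route against the CDP-choline route, was lower by 0.30 on the log2 scale in HFD than in chow, with p = 0.0857 (exact permutation) and 0.343 after Benjamini-Hochberg adjustment over the 12. The ranges were -0.322 to 0.0383 in HFD and -0.0925 to 0.321 in chow. Ptdss1 relative to Ptdss2 had the lowest p, 0.0571 (exact permutation, adjusted 0.343), and was lower by 0.43 in HFD+ASBTi than in chow.

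Enzymes around the pathway were counted from lists chosen with results of these data known. In the list of the methyl cycle, which makes and uses S-adenosylmethionine, 14 of 17 genes were tested and 7 fell and 2 rose in HFD against chow, where 4.46% of all tested genes fell and 7.65% rose. The list's median log2 difference was -0.39, and that of all tested genes 0.02. Mat1a, the liver's S-adenosylmethionine synthetase, was 175, 164, 183 and 156 RPKM in chow and 67.7, 85.8, 93.7 and 111 in HFD. The groups lay far apart, and Mat1a fell to 0.528-fold (adjusted p = 0.00254, limma). Gnmt, which consumes S-adenosylmethionine by methylating glycine, was 291, 233, 147 and 182 RPKM in chow and 89.0, 74.1, 97.3 and 112 in HFD, with chow C7 the lowest chow library. It fell to 0.437-fold, with an adjusted p of 0.0101.

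Nnmt, which methylates nicotinamide, fell from 10.6 ± 1.87 to 2.73 ± 1.49 RPKM (SD, n = 4 each; adjusted p = 0.00444, limma). Cth, the last enzyme of cysteine synthesis from homocysteine, fell from 5.29 ± 1.25 to 2.70 ± 0.406 RPKM (adjusted p = 0.00946). Ahcy, which hydrolyses the S-adenosylhomocysteine left by Pemt and other methyltransferases, fell from 54.5 ± 4.65 to 36.8 ± 4.61 RPKM (adjusted p = 0.0425), a call that 11 of 21 alternatives ended, at adjusted p of 0.0516 to 0.109. These included leaving out any chow library, HFD 1, 2 or 3, or HFD+ASBTi 2 or 4. Bhmt, which remethylates homocysteine with betaine, was 53.3 ± 20.2 RPKM in chow and 34.2 ± 13.2 in HFD (adjusted p = 0.261), with chow 1 at 83.4 RPKM and the other chow libraries at 40.9 to 47.1. Between HFD+ASBTi and HFD limma called none of the 14, where only 0.0949% of all tested genes were called. It passed 2 of the 14 at an unadjusted p under 0.05, against 9.26% of all tested genes. None was called on the RPM scale, where 0.0452% of genes were. Against chow, HFD+ASBTi livers had 1 of the 14 lower and 1 higher, where 2.31% of all tested genes fell and 4.74% rose. At an unadjusted p under 0.05 limma passed 8 of the 14, against 23.3% of all tested genes. On the RPM scale Cth was also called lower (limma adjusted p = 0.0474). Mat1a fell to 0.565-fold (adjusted p = 0.00886). Gamt, which methylates guanidinoacetate to creatine, rose from 7.77 ± 2.15 to 16.3 ± 3.34 RPKM (adjusted p = 0.0132).

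In the list of choline uptake and oxidation, 2 of 4 tested genes rose in HFD against chow and none fell, where 7.65% of all tested genes rose and 4.46% fell. Those tested were Chdh, Aldh7a1, Dmgdh and Sardh, and no uptake gene reported here passed the filter. On the RPM scale 3 of 7 rose, where 9.81% of genes were called in either direction. That added Slc44a3 of the uptake genes, at 0.0373 RPKM in chow and 0.0761 in HFD (limma adjusted p = 0.00330). Slc44a3 was also called higher there in HFD+ASBTi against chow (limma adjusted p = 0.0117). Chdh, which oxidises choline, rose from 5.18 ± 0.263 to 6.78 ± 0.0858 RPKM (SD, n = 4 each; adjusted p = 0.00682, limma). Sardh, which oxidises the sarcosine that Gnmt makes, rose from 3.95 ± 0.775 to 6.11 ± 0.541 RPKM (adjusted p = 0.0155). With HFD+ASBTi against chow, 2 of the 4 rose, where 4.74% of all tested genes rose. Sardh was 1.60-fold (adjusted p = 0.0195), and without chow 2 or HFD+ASBTi 2 its adjusted p was 0.0589 or 0.0520. Chdh was 1.22-fold (adjusted p = 0.0397), and 12 of 21 alternatives ended its call, at adjusted p of 0.0522 to 0.103, among them leaving out any chow library, HFD 2 or 3, or HFD+ASBTi 1 or 2.

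Of the enzymes that remodel or break down phosphatidylcholine, Pla2g6 had the lowest adjusted p. Pla2g6, a calcium-independent phospholipase A2, was 0.319, 0.394, 0.345 and 0.347 RPKM in chow, 0.911, 1.19, 0.931 and 0.847 in HFD and 0.607, 0.474, 0.561 and 0.423 in HFD+ASBTi. The 3 groups did not overlap. It rose 2.76-fold in HFD against chow (adjusted p = 0.000300, limma), a call that held under 20 alternatives, among them the fit without the filter. No chow library reached 0.5 RPKM, so Pla2g6 passed the filter only through the HFD and HFD+ASBTi libraries. With HFD+ASBTi it fell to 0.532-fold of HFD (adjusted p = 0.0466), as 1 of 4 genes called lower in that comparison (0.0632% of those tested), and 17 of 21 alternatives ended the call, at adjusted p of 0.0521 to 0.429, among them leaving out any 1 of the 12 libraries. HFD+ASBTi was 1.47-fold of chow (adjusted p = 0.0858, and 0.0308 on the RPM scale). In the list of breakdown, transfer and export, 3 of 14 tested genes rose in HFD against chow and none fell, where 7.65% of all tested genes rose and 4.46% fell. On the RPM scale, 3 of its 18 genes rose and 1 fell, where 9.81% of genes were called in either direction. The gene that fell was Pnpla6, a lysophospholipase named after its values were seen (limma adjusted p = 0.0393). Every HFD library was below every chow library for Pnpla6, as for 8.89% of tested genes. The others that rose were Pla2g15, the lysosomal phospholipase, at 1.63-fold (adjusted p = 0.0148), and Pctp, a phosphatidylcholine transfer protein, at 1.68-fold (adjusted p = 0.0255, ended by 6 of 21 alternatives at up to 0.0717, which included leaving out chow 1, 2 or C7 or HFD 2 or 3). Abcb4, which moves phosphatidylcholine into bile, was 1.79 ± 0.132 RPKM in chow and 1.76 ± 0.168 in HFD (adjusted p = 0.946).

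Lpcat3, which puts polyunsaturated fatty acids into phosphatidylcholine, was the 1 of 5 tested remodelling genes that rose in HFD, where 7.65% of all tested genes rose. It was 1.02, 1.12, 0.972 and 1.12 RPKM in chow and 1.38, 1.64, 1.65 and 1.95 in HFD, with no overlap, and rose 1.56-fold (adjusted p = 0.00859, limma). Among 11 tested enzymes of other synthesis steps, 1 fell and none rose in HFD, and 4.46% of all tested genes fell, so this count says little of the list. That was Lpin1, a phosphatidate phosphatase, at 0.238-fold (adjusted p = 0.0279), and 7 of 21 alternatives ended its call, at up to 0.0755, among them leaving out chow 1, 2 or 4 or HFD 1, 2 or 3. In HFD+ASBTi against chow none of the 11 was called, where 7.05% of all tested genes were. Limma passed 4 of them at an unadjusted p under 0.05, against 23.3% of tested genes. On the RPM scale 1 of 14 fell, where 5.48% of genes were called in either direction. It was Etnppl, named after its values were seen, at 0.349-fold (limma adjusted p = 0.0289, and 0.0511 with the filter on RPKM). No test set the lists against the 10 members, so the members' lack of calls is not shown to differ from them.

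**Figure D5:**
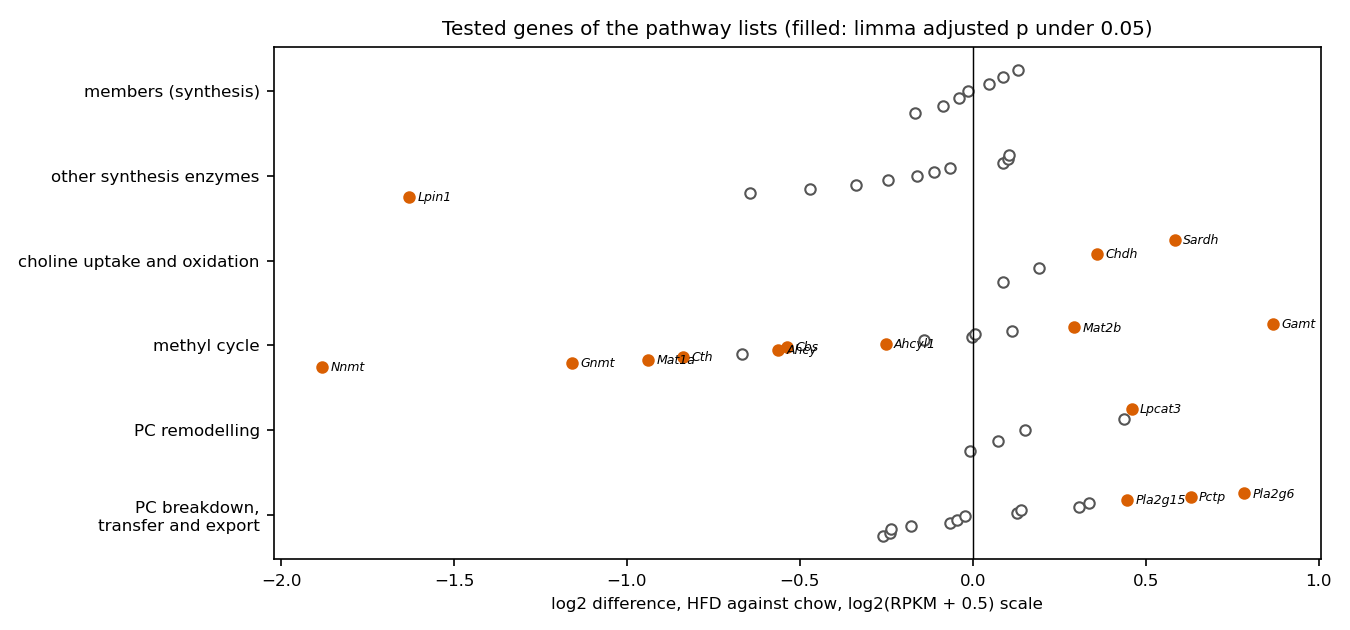
Log2 difference of HFD against chow, on the log2(RPKM + 0.5) scale, for each tested gene of the members and of the 5 lists (PC, phosphatidylcholine); filled points have a limma adjusted p under 0.05. The 7 tested members lie between -0.17 and 0.13 with none filled, and the methyl cycle list has 7 filled points below 0 and 2 above.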

How the data were processed

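Liver polyA RNA was sequenced in 12 libraries of 3 groups of 4. The deposited values are RPKM for 33763 transcripts, made by the authors. Bowtie 0.12.7 and mm9 are named in the submitters' processing notes, and no source used here gives the counter, annotation or strand setting. The chow column headed C7 matched its group but not 1 sample's label, so it is called chow C7 and stands for no numbered sample.

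Each of 23991 genes is represented by its transcript of highest mean. Differences were tested with limma 3.58.1 in R 4.3.3 (mean-variance trend, all 12 libraries, 9 residual degrees of freedom) on log2(RPKM + 0.5), for 6325 genes that reached 0.5 RPKM in 4 or more libraries, and two-sided p-values were adjusted over all of them. Log2 differences on this scale understate the change of low genes, whereas folds are ratios of mean RPKM. The RPM scale is RPKM times the transcript's genomic length in kb, with 0.5 added, tested in 13286 genes. Intervals are from that fit. Estimated reads come from the steps between low values. The fit was tested on simulated data. Sequences and lengths are from RefSeq tables, and no gene coordinates are given on mm9.

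The members, lists and tests were chosen with earlier results of these data known. All 10 members are named, with up to 4 called genes per list and comparison by adjusted p and 10 set genes (Chpt1, Ept1, Etnk2, Pcyt1b, Mat1a, Gnmt, Ahcy, Bhmt, Lpcat3 and Abcb4). Arntl, which is in no list, was named besides these. One gene of the choline list is not reported here and was left out of its counts. Figures were drawn with matplotlib 3.10.9.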

Additional observations from a re-analysis of the deposited data

Results flagged for a closer look

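Among 57 groups of 4 libraries (19 genes in 3 groups), 3 had a library far from the others by Dixon's criterion, which sets the gap to the nearest library against the group's range; chance gives about 1 in 20. Ptdss2 in chow C7 was at 0.181 RPKM, where the other chow libraries were at 0.222 to 0.230. Pisd in HFD 4 was at 0.522 RPKM, where the other HFD libraries were at 0.448 to 0.460. Bhmt in chow 1 was at 83.4 RPKM, where the other chow libraries were at 40.9 to 47.1.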

How the results depend on the processing

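Over 22 alternatives the 10 members gave 616 refits, of which 2 were called, both Cept1 in HFD against chow, so the number of called members there was 1 with TMM factors and 1 with quantile normalization. With 1 library left out, 0 members were called in every comparison. Called genes in HFD against chow numbered 1304 on the RPM scale and 458 to 864 with 1 library left out, against 766. In HFD+ASBTi against chow they numbered 728 on the RPM scale and 142 to 521 with 1 library left out, against 446. In HFD+ASBTi against HFD the 6 calls became 2 with a pseudocount of 1, 0 without a filter, 1 with a mean of at least 1 RPKM, 3 with the 8 compared libraries alone, 3 with a replicate block and 0 to 9 with 1 library left out. Deviations of same-numbered HFD and HFD+ASBTi libraries correlated at 0.0691, 0.0408, 0.0551 and 0.0411, so the numbers were not taken as pairs, and 2 of the 4 HFD libraries correlated best with another number.

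Small differences changed sign in 20 of the member refits. With 1 library left out, the log2 difference in HFD against chow ran from -0.0849 to 0.0493 for Chkb, -0.0708 to 0.0097 for Ptdss1 and -0.0553 to 0.0313 for Abcb4. For HFD+ASBTi against HFD it ran from -0.0089 to 0.0695 for Pemt, -0.0633 to 0.0149 for Pcyt1a, -0.0402 to 0.0403 for Ptdss1 and -0.0038 to 0.0751 for Ptdss2, and the log2 ratio of Ptdss1 to Ptdss2 from -0.246 to 0.0775. For HFD+ASBTi against chow it ran from -0.1438 to 0.1443 for Chka, -0.0884 to 0.0284 for Etnk1 and -0.0205 to 0.0587 for Pisd, and the log2 ratio of Chka to Chkb from -0.4528 to 0.1368. Pisd in that comparison was -0.0142 with TMM factors and -0.0175 with quantile normalization. The causes were not tested. Ptdss2 rested on an estimated 52 to 101 reads per library and Chka on 70 to 376.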

Other observations

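Libraries 1 and 2 of HFD+ASBTi stood on the other side of libraries 3 and 4 in every member but Etnk1 and Ptdss2, and in Abcb4. Chkb was at 6.62 and 6.23 RPKM in libraries 1 and 2, and at 5.11 and 4.13 in libraries 3 and 4. Pcyt2 was at 32.1 and 35.5 RPKM in libraries 1 and 2, and at 54.8 and 43.0 in libraries 3 and 4. Abcb4 was at 2.14 and 2.30 RPKM in libraries 1 and 2, and at 1.18 and 1.16 in libraries 3 and 4, while the HFD libraries lay at 1.51 to 1.90. Pcyt2 was also lower in HFD 1 and 2, at 31.9 and 28.9 RPKM, than in HFD 3 and 4, at 38.4 and 39.2. Pemt, Chka, Pcyt1a, Cept1, Ptdss1 and Pisd also divided the HFD+ASBTi libraries this way, by small gaps in Pemt, Cept1 and Pisd. The direction differed between members. Etnk1 and Ptdss2 did not divide them, and the share of all genes that did was not counted. Estimated reads were 10710000 and 11270000 in HFD+ASBTi 1 and 2, and 8960000 and 9200000 in HFD+ASBTi 3 and 4. The labels give no batch for these libraries. In the sample titles the numbers of HFD+ASBTi 1 and 2 come before those of the HFD libraries, and the numbers of HFD+ASBTi 3 and 4 come after. What the title numbers stand for is not stated. The split was noticed after the values were seen and was not tested.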
